A study of Mus musculus with 9 samples.

Results

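Among the intervals listed for KDM6A in mouse embryonic stem cells, 480 merged regions lay within 1 kb of either end of a protein-coding gene and were listed in both libraries numbered 1 (MTX 1 and control 1) and in neither library numbered 2 (MTX 2 and control 2). They were chosen by merging touching or overlapping intervals of the 4 KDM6A lists and keeping autosomes other than 11. The 4 lists merged into 82424 regions, 73553 of them on these autosomes, and the 480 reached an end of 585 genes. Presence in the lists chose these regions, so their presence in libraries 1 and their absence from libraries 2 are no finding.

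The study used ChIP-seq, the sequencing of DNA fragments recovered with an antibody against a chromatin protein, in the Sv129 line of embryonic stem cells grown on gelatin with leukemia inhibitory factor. The MTX group (2 KDM6A libraries, labelled folate deficiency) had received 0.12 µM MTX for 24 h, and 1 further library of MTX cells used a nonspecific IgG antibody. The control group (2 KDM6A libraries) is titled C, with WT as its genotype label. The other 4 of the 9 samples were inputs, not analysed here as lists of their own. All carry the same line and the same treatment label, neurodevelopment, and nothing in the labels says whether libraries 1 and 2 of a group came from separate cultures. ChIP-seq of DNA measures no RNA, so the labelled cell type was not checked against expressed markers.

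KDM6A, also called UTX, is a demethylase that removes repressive methyl marks placed on histones by Polycomb repressive complex 2, and it is a subunit of the KMT2C and KMT2D methyltransferase complexes, which act at enhancers and promoters. Promoters come in a CpG-rich form, the CpG islands, typical of housekeeping and developmental genes, and in a CpG-poor form, typical of genes used in few tissues, such as odorant and pheromone receptors. IgG libraries show where chromatin is recovered without a specific antibody.

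The promoters that follow, 250 bases before to 50 bases after a transcript start of the promoter table (RefSeq, GRCm38.p6, the build of mm10), show both forms. They are written along the gene's own strand with each CpG in capitals. Among the named genes of the gene groups, up to 3 per group, the 4 with the best-ranked regions over a CpG-rich promoter were Sox2 (chr3:34649745-34650044, plus strand), a core pluripotency factor, Atp5g2 (chr15:102670998-102671297, minus strand), a subunit of mitochondrial ATP synthase, Rfc4 (chr16:23127681-23127980, minus strand), a loader of the replication clamp, and Bub1 (chr2:127831810-127832109, minus strand), a spindle checkpoint kinase. These 4 were chosen after their CpG content was seen, and they held 27, 20, 34 and 23 CpGs in 300 bases. An interval of MTX 1 covered the promoters of Atp5g2 and Rfc4, and one of control 1 those of Sox2, Rfc4 and Bub1, while the merged regions covered all 4.
Sox2: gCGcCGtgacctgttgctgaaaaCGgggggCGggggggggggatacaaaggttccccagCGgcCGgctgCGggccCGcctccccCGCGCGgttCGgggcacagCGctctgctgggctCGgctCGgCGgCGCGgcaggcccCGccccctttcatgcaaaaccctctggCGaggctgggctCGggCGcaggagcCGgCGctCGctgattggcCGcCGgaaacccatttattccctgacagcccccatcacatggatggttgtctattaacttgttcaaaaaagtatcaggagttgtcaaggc
Atp5g2: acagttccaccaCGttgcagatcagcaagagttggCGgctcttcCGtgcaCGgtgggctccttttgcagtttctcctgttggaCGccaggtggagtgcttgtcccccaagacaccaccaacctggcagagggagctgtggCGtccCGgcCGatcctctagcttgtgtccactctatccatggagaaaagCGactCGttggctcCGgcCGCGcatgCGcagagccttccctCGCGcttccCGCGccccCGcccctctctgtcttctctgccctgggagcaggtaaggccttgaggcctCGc
Rfc4: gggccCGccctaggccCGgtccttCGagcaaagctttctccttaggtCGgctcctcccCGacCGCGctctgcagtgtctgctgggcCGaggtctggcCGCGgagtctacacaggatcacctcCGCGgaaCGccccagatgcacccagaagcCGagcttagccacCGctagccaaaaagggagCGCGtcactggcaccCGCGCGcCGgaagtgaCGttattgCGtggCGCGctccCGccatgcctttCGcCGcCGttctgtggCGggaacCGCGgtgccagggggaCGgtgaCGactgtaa
Bub1: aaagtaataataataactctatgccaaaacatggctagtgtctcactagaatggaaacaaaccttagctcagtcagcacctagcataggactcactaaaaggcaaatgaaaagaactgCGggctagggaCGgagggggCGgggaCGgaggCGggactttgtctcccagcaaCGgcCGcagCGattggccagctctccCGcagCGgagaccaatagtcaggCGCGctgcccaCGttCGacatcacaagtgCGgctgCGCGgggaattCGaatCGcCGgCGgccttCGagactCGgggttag

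The next promoters are those covered by the regions with the best deposited p-values. Those above were picked for being CpG-rich, so the CpG counts of these sets are not compared. Among the 20 regions named by rank, a whole promoter was covered at Atp5j2 (chr5:145191492-145191791, minus strand), another subunit of ATP synthase, Cd48 (chr1:171681742-171682041, plus strand), a surface protein of blood cells, and 3 receptor genes: Vmn1r227 (chr17:20734956-20735255, plus strand), Olfr1105 (chr2:87034170-87034469, minus strand) and Olfr889 (chr9:38115548-38115847, plus strand). They held 13, 7, 1, 0 and 1 CpGs. The start used for Cd48 is of a transcript that begins inside the outermost span of the gene. Intervals of MTX 1 covered all 5 promoters whole, and those of control 1 covered Atp5j2 and Vmn1r227 whole and Olfr1105 in part.
Atp5j2: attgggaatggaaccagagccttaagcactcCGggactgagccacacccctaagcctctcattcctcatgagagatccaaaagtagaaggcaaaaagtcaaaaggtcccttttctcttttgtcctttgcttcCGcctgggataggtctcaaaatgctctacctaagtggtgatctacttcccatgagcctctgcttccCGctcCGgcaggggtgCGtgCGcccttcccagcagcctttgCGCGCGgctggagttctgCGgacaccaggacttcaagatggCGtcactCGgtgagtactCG
Cd48: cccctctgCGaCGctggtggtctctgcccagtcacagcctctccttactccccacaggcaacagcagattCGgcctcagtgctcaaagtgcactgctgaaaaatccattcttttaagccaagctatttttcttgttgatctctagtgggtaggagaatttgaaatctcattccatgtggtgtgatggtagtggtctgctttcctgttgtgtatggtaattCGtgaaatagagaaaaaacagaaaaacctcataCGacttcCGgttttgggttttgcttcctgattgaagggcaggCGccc
Vmn1r227: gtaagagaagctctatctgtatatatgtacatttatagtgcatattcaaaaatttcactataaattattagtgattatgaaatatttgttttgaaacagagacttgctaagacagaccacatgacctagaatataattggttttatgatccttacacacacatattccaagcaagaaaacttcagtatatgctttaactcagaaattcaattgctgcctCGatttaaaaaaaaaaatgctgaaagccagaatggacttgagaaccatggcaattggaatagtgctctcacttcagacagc
Olfr1105: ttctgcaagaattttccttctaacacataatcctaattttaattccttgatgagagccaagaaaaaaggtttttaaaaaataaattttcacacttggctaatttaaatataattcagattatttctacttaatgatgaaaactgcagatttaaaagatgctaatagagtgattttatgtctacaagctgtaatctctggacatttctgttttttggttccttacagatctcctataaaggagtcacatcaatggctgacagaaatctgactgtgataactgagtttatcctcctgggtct
Olfr889: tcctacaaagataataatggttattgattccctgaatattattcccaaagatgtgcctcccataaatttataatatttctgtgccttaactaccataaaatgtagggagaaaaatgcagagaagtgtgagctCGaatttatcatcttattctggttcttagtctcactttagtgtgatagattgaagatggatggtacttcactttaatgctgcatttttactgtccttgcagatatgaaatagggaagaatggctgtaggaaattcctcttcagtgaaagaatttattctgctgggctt

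For comparison, the best-ranked promoters covered by gene-end regions of MTX 2 and control 2 alone were those of Olfr825 (chr10:130163275-130163574, minus strand), an odorant receptor, and Slco1a6 (chr6:142186100-142186399, minus strand), an organic anion transporter. Each held 1 CpG, and 1 interval covered each promoter, of MTX 2 at Olfr825 and of control 2 at Slco1a6.
Olfr825: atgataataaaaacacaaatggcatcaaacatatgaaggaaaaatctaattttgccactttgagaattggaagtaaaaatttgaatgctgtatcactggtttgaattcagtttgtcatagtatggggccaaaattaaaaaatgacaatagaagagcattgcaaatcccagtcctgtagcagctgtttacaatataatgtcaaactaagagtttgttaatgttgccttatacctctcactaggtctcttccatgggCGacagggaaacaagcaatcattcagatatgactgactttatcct
Slco1a6: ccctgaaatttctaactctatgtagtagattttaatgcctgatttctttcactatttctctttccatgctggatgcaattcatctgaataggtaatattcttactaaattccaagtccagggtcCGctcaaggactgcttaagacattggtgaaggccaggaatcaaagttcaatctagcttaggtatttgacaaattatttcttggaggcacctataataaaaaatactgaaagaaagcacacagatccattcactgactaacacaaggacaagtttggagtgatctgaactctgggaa

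Gene starts outnumbered the other ends among the 480 regions. Strand was known, through a promoter sequence, for 15186 of the 19056 genes on these chromosomes, and so for at least 1 end in 409 regions. Of these, 278 (68.0%, exact 95% interval 63.2 to 72.5%) reached a gene start: 208 a start only and 70 both a start and a far end. The remaining 131 reached a far end only, and 71 regions had no end of known strand. In the gene-end regions of MTX 2 and control 2 alone the share at a start was 43.0% (33.1 to 53.3%, 43 of 100). It was 43.2% (36.8 to 49.8%) for MTX 2 with control 1 and 47.5% (36.2 to 59.0%) for MTX 1 with control 2. For both MTX libraries it was 56.2% (47.2 to 64.8%), and for both control libraries 44.4% (35.9 to 53.2%). Gene-end regions listed in MTX 1 alone were at a start in 63.2% (60.1 to 66.2%) and those of control 1 alone in 61.2% (59.0 to 63.4%). For MTX 2 alone the share was 45.5%, and for control 2 alone 39.8%. With only the better 50% of each list, the share for MTX 1 and control 1 was 53.1% of 64 regions. Intervals of shares cover counting error only, regions are not replicates, and no test was made.

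Regions listed in MTX 1 and control 1 alone also lay at gene ends more often than those of other library pairs. Of 2751 such regions, 17.4% (16.0 to 18.9%) were at a gene end. The share was 8.50% (7.08 to 10.1%) of the 1389 regions of MTX 2 and control 2, and between 8.81% and 10.4% for the other 4 pairs. Regions of all 4 libraries came close, at 15.9% (13.9 to 18.1%), but 55.4% of theirs were at starts. They were also wider, with median widths of 14000 bp at gene ends and 10600 bp away. Both medians were 5000 bp for MTX 1 and control 1 alone, and the part of width was not tested.

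**Figure D1:**
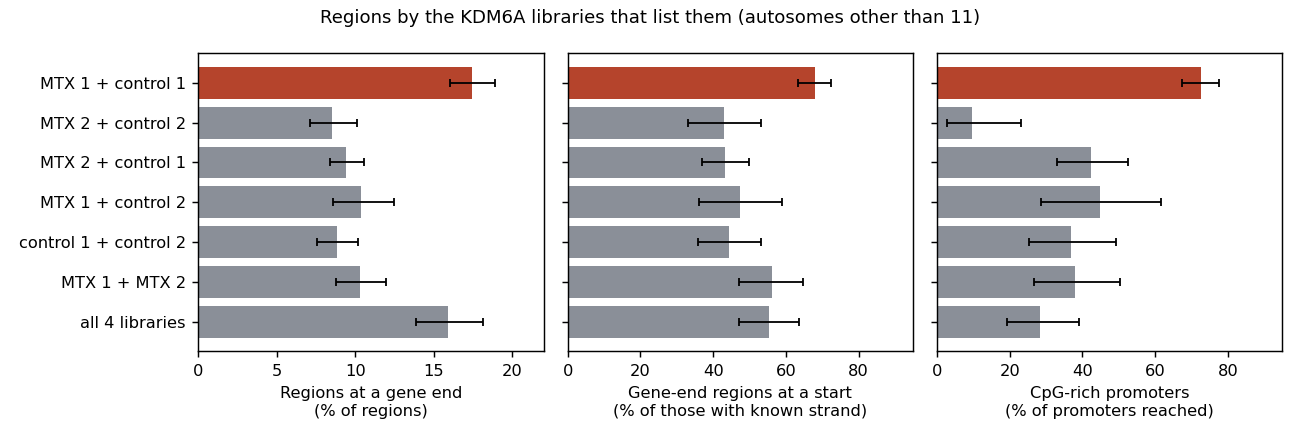
Regions grouped by the KDM6A libraries that list them, with the share at a gene end (left), the share of gene-end regions at a gene start (middle) and the share of CpG-rich promoters (right), all in percent. Error bars are exact 95% intervals, and the red bars for MTX 1 + control 1 stand at 17.4%, 68.0% and 72.6%.

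The promoters reached by the 480 regions were mostly CpG-rich. CpG content was taken as observed over expected, the number of CpGs times the length over the product of C and G counts, and a promoter above 0.6 was called CpG-rich. Of 310 promoters within 1 kb of a region, 225 (72.6%, exact 95% interval 67.3 to 77.5%) were CpG-rich. Their median ratio over all 310 was 0.79 and the median GC content 61.0%. Promoters were counted per gene, so overlapping promoters of neighbouring genes entered more than once, which the intervals do not allow for. Among the promoters reached by regions of MTX 2 and control 2, 4 of 41 (9.76%, 2.72 to 23.1%) were, with a median ratio of 0.16 and a GC content of 39.7%. Over all 15186 promoters of these chromosomes the share was 49.2%, the median ratio 0.59 and the GC content 56.7%. The values of the other pairs were between these, from 36.8% to 44.7% CpG-rich, and regions of all 4 libraries reached 28.4%.

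**Figure D2:**
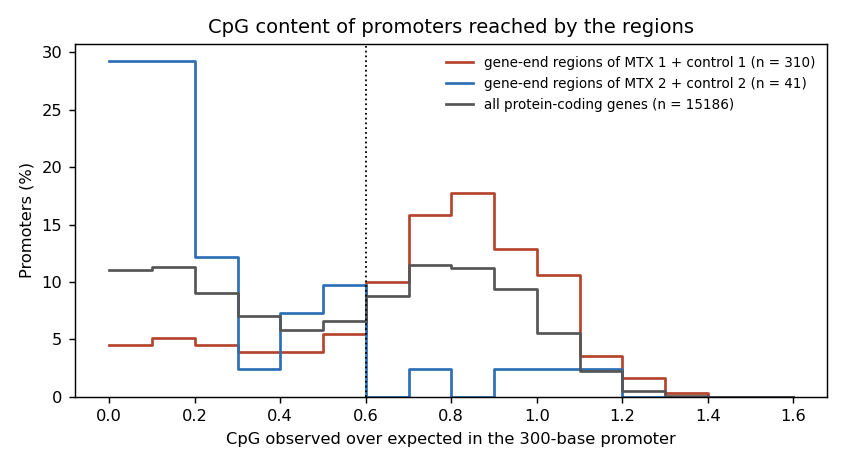
CpG observed over expected (horizontal axis) in the promoters reached by gene-end regions of MTX 1 + control 1, of MTX 2 + control 2 and in all protein-coding genes, as percent of each set's promoters (vertical axis). The dotted line marks 0.6, above which lay 225 of 310, 4 of 41 and 49.2% of the promoters.

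The same contrast was seen in the lists one by one, including regions that only 1 library had. Promoters of regions listed in MTX 1 alone were CpG-rich in 65.3% of cases and those of control 1 alone in 64.2%, against 33.3% for MTX 2 alone and 26.1% for control 2 alone. CpG-rich promoters made up 61.9% of those within 1 kb of an interval of MTX 1 and 61.2% in control 1, against 30.3% in MTX 2 and 21.5% in control 2. For IgG, a library of MTX cells with the same number 1, the share was 50.4% (47.0 to 53.8%, 432 of 857), and 57.9% of its gene-end intervals were at a start. IgG thus stood between the KDM6A libraries numbered 1 and those numbered 2 in CpG-rich promoters. The share over all promoters of these chromosomes, 49.2%, lay within the IgG range. In the share of gene-end intervals at a start, IgG (55.2 to 60.5%) lay close to control 1, at 58.6%, and MTX 1, at 61.1%. Their ranges were 56.8 to 60.4% and 58.8 to 63.4%, and that of IgG overlapped both. MTX 2, at 44.4%, and control 2, at 41.6%, were lower. Libraries of 1 number share whatever the number stands for, which the labels do not say, and its part in these shares was not tested. GC content moved with the number too, as given above, and its part was not tested either.

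The rule required an end within 1 kb, so high coverage near the ends and its fall with distance were set in advance. Ends not reached by these regions were not measured, so the positions below are a description only. At the 322 gene starts reached, intervals of MTX 1 covered up to 70.5%, at 200 bp into the gene, and those of control 1 up to 61.8%, at the start itself. At 5 kb upstream they covered 11.8% and 15.8%. At the 223 far ends, coverage was 49.3% by MTX 1 and 43.5% by control 1 at the end itself, and it was highest 1000 bp beyond the gene, at 54.3% and 56.1%. IgG covered at most 12.1% of the starts and 11.2% of the far ends.

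**Figure D3:**
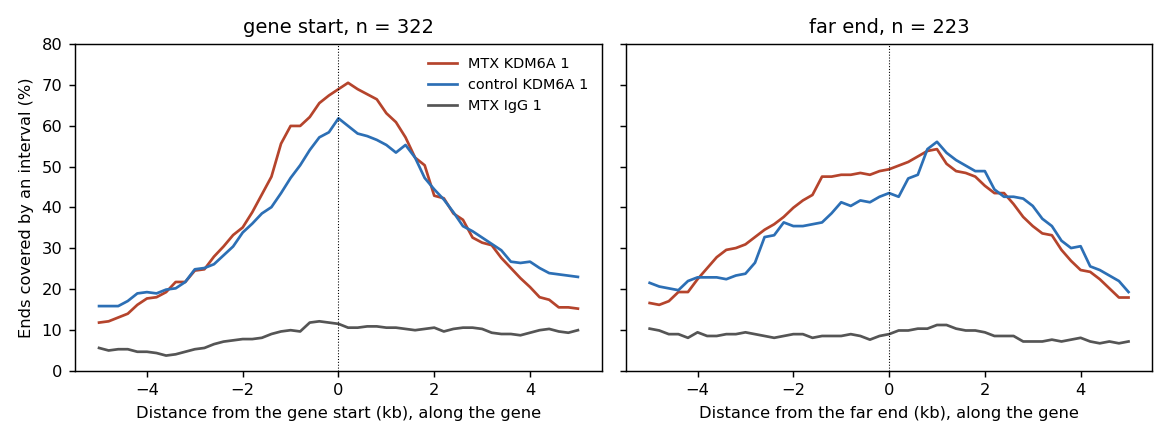
Percent of gene starts (left, n = 322) and far ends (right, n = 223) reached by the 480 regions that lie under an interval of each library, by distance in kb along the gene's direction. Lines stand for the libraries. Coverage by MTX 1 and control 1 near the ends was set in advance by the rule and reaches 70.5% and 61.8% near the starts. IgG stays at or under 12.1%.

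Short words of letters, some of which contain a CpG, were about as frequent in the CpG-rich promoters reached as in CpG-rich promoters in general. The ETS-type letters CCGGAAG were in 18.4% of the 310 promoters on either strand, against 12.2% of all promoters of the same length. Within CpG-rich promoters the shares were 23.6% (18.2 to 29.7%) of 225 and 20.2% of 7471. The GC box GGGCGG was in 56.5% against 47.0% of all, and in 70.2% against 74.5% of CpG-rich promoters. The TATA letters TATAAA were in 10.0% against 13.5%, and in 9 of the 225 against 5.82% of CpG-rich ones. CCAAT was in 40.3% against 39.1% of all promoters, and in 39.6% against 37.4% of CpG-rich ones. CACGTG was in 9.03% against 7.80% of all, and in 10.2% against 11.3% of CpG-rich ones. AAGATGGC was in 4.19% against 3.10%, and in 4.44% against 4.82% of CpG-rich ones. The NRF1 palindrome was in 1.61% against 1.42%, and in 2.22% against 2.69% of CpG-rich ones. The cyclic AMP response element TGACGTCA was in 14 of 310 (4.52%, 2.49 to 7.46%) against 2.37% of all, and in 6.22% (3.44 to 10.2%) against 3.88% of CpG-rich promoters. Both strands were searched, 3 of these words (CACGTG, TGACGTCA and that of NRF1) read the same on both, and none contains another. A match is a description and not a binding site.

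The regions were shallow in reads. MTX 1 had 41 to 444 immunoprecipitated reads per region (median 119) and control 1 had 36 to 284 (median 86). The deposited fold divides immunoprecipitated by background reads and scales the result by 1 constant per list. Taken over all reads of a region it had a median of 1.32 (quartiles 1.10 and 1.57) in MTX 1 and 1.37 (1.14 and 1.63) in control 1. The exact 95% interval of the ratio included 1 in 237 regions in MTX 1 and in 234 in control 1. In the 2271 regions of these libraries away from gene ends the medians were higher, at 1.44 and 1.54. Background reads were denser at the 480 regions, with medians of 27.9 reads per kb in MTX 1 and 27.6 in control 1, against 24.7 and 24.4 away from gene ends. Immunoprecipitated reads per kb differed less, at 34.0 and 28.2 against 33.2 and 28.0.

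Many regions were listed without a read excess that passed the deposited test. The adjusted p (as deposited) of the best interval was under 0.05, with a fold above 1, in 328 of 480 regions (68.3%) in MTX 1, where 79.0% of all regions with both libraries had such an interval. In control 1 it was so in 333 (69.4%), against 81.8%. Both libraries passed in 245 regions (51.0%), against 67.4%, and the fold was at or under 1 in 55 regions in MTX 1 and in 48 in control 1. The rule used these same lists, so nothing is read from the counts. Among the 245 regions, 129 of the 204 with known strand (63.2%, 56.2 to 69.9%) were at a gene start and 62.9% of the promoters were CpG-rich. Among the other 235, 149 of 205 (72.7%, 66.0 to 78.7%) were at a start and 80.6% were CpG-rich.

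Of the 20 regions named by rank, 12 had no IgG interval, and 5 of these reached a far end only, 2 a start only and 2 both. Adgrl3, an adhesion receptor of neurons on chromosome 5 (81827201 to 81830800), had 101 reads over 31 background reads in MTX 1 and 63 over 34 in control 1, or folds of 3.50 (exact 95% interval 2.32 to 5.41) and 2.45. Both libraries came within 1 kb of the far end of Adgrl3, but only the interval of MTX 1 covered it. The ranges of their folds overlap.

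Pcdhga5, a clustered protocadherin on chromosome 18 (37692201 to 37695400), had folds of 2.29 (1.63 to 3.25) in MTX 1 and 3.12 (1.98 to 5.04) in control 1. Vmn1r227, a pheromone receptor on chromosome 17 (20732601 to 20738600), had 178 reads over 90 in MTX 1 and 140 over 94 in control 1, or 2.12 and 1.97. Olfr1105, an odorant receptor on chromosome 2 (87032001 to 87038000), had 1.89 and 2.10. Copies of these families resemble each other and may share reads, so these 3 are uncertain.

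Cd48 had folds of 1.92 in MTX 1 and 1.90 in control 1, from 102 and 142 immunoprecipitated reads, and the libraries did not both reach the same gene end. At the start of Atp5j2 (145187201 to 145192200), whose promoter is printed above, MTX 1 had 155 reads over 105 and control 1 had 126 over 87, which gave 1.58 (1.23 to 2.05) and 1.92 (1.45 to 2.55). The others were Umps, an enzyme of pyrimidine synthesis, Wasf3, a regulator of actin, Ssr3, a subunit of the translocon-associated complex, Cfap54, a protein of cilia, and Atp1b3, a subunit of the sodium pump. Their folds ran from 1.45 at Umps to 1.71 at Atp1b3 in MTX 1, and from 1.89 at Cfap54 to 3.66 at Wasf3 in control 1. At Umps and Ssr3 the libraries did not both reach the same gene end. The Wasf3 value rests on 36 reads over 13, with an interval of 1.90 to 7.53.

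**Figure D4:**
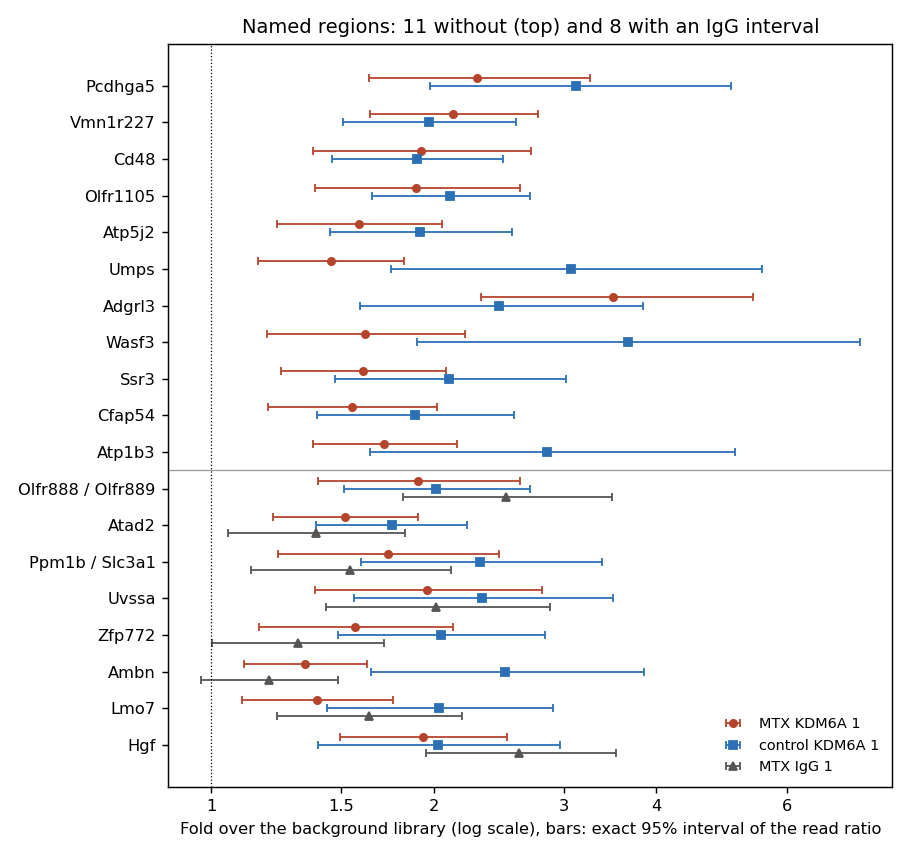
Fold over the background library (log axis) in 11 of the 12 named regions without an IgG interval (above the line) and the 8 with one (below it), for MTX KDM6A 1 (circles), control KDM6A 1 (squares) and MTX IgG 1 (triangles). Bars are exact 95% intervals of the read ratio and cover counting error only; IgG lies above both KDM6A libraries at Olfr888 / Olfr889 and Hgf.

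IgG intervals overlapped 123 of the 480 regions, or 25.6% (exact 95% interval 21.8 to 29.8%). Over all regions with MTX 1 and control 1, which include those of more libraries, 38.8% had one. Away from gene ends the share in the same class was 24.0% (22.2 to 25.8%, 544 of 2271), so gene ends did not differ from the rest beyond these intervals. It was 28.8% (20.8 to 37.9%) in the gene-end regions of MTX 2 and control 2 and 83.2% (77.1 to 88.3%) in those of all 4 libraries. The regions of all 4 were wider, with a median of 14000 bp against 5000 bp for the 480, and the part of width was not tested. Regions with an IgG interval were at a gene start in 69.6% of cases (59.7 to 78.3%, 71 of 102) and those without in 67.4% (61.9 to 72.6%, 207 of 307), and 71.8% and 72.8% of their promoters were CpG-rich.

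Where IgG had an interval, its fold was close to those of KDM6A. Over these 123 regions the median fold was 1.26 (quartiles 1.07 and 1.49) in IgG, 1.28 (1.07 and 1.51) in MTX 1 and 1.30 (1.14 and 1.64) in control 1. IgG was above both KDM6A libraries in 31 regions, between them in 47 and below both in 45. The background counts of IgG and MTX 1 were the same in 52 of the 52 intervals with equal start and end in their full lists, against 1 of 67 for MTX 1 and control 1, so their folds share a denominator.

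Named regions with an IgG interval showed the same spread. At Olfr888 and Olfr889, neighbouring odorant receptors on chromosome 9 (38108601 to 38117200), the folds were 1.90 in MTX 1, 2.50 in IgG and 2.02 in control 1. Hgf, a growth factor, on chromosome 5 (16619401 to 16626000), had 1.93 in MTX 1, 2.61 in IgG and 2.02 in control 1, from 171, 166 and 75 reads. Uvssa, a factor of transcription-coupled repair, had 1.96, 2.02 and 2.32. At Ambn, an enamel protein gene, the values were 1.34, 1.20 (0.97 to 1.48) and 2.50, and at Zfp772, a zinc finger gene, 1.57, 1.31 and 2.04. Atad2, a bromodomain protein, had 1.52, 1.39 and 1.75, Ppm1b and Slc3a1, which share a region, had 1.73, 1.54 and 2.31, and Lmo7 had 1.39, 1.63 and 2.03, all in this order of libraries. Of these 8, MTX 1 and control 1 did not both reach the same gene end at Olfr888 and Olfr889, Ppm1b and Slc3a1, Ambn and Lmo7. Each IgG interval in these 8 regions overlapped that of at least 1 KDM6A library in its exact 95% range.

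The log2 ratio of the MTX 1 fold to the control 1 fold over the 480 regions had a median of -0.06, with quartiles of -0.34 and 0.26. Its size and direction depended on the processing. It was -0.38 with lists of equal length, a smaller set of 126 regions under the same scaling. Scaling reads to the total within intervals, which is not depth, gave 0.78. Over all 5585 regions listed in both libraries the median was -0.09 (-0.38 and 0.21). MTX 1 was past 1.5-fold higher in 45 regions (9.38%, exact 95% interval 6.92 to 12.3%), beside 6.95% of all regions with both libraries. It was past 1.5-fold lower in 59 (12.3%, 9.49 to 15.6%), beside 13.2%. With 1 library per condition these differences have no replicate check and no test. Each library was summed over its own intervals, which overlapped directly in 465 of the 480 regions and both reached the same gene end in 332.

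The widest differences rested on few background reads or on unequal intervals. At Chuk, a kinase of the NF-kappa-B pathway that shares a region with Cwf19l1 on chromosome 19 (44105601 to 44108000), MTX 1 had 41 reads over 5 and control 1 had 76 over 73, folds of 8.80 and 1.38. In the other direction stood Tdgf1, a co-receptor of Nodal, on chromosome 9 (110945201 to 110949200), with 124 reads over 138 in MTX 1 and 50 over 18 in control 1, folds of 0.96 and 3.67. At neither gene did intervals of both libraries reach the same end. Both genes were chosen after their values were seen.

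**Figure D5:**
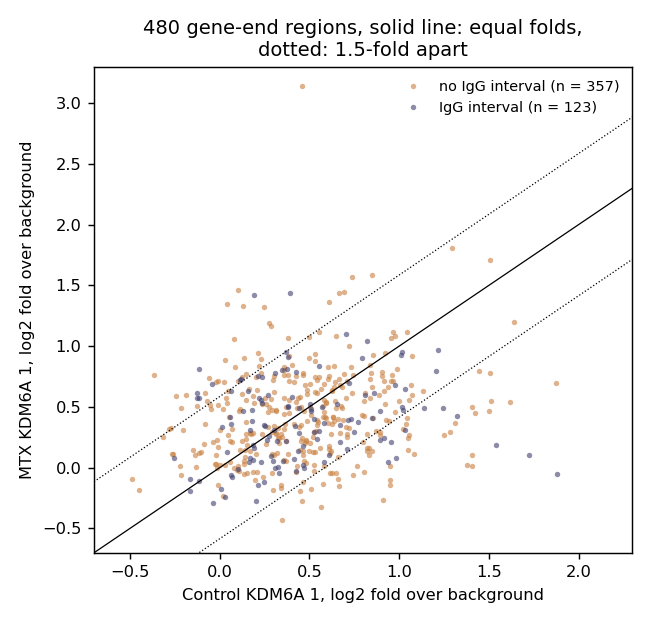
Log2 fold over background of each of the 480 regions in MTX KDM6A 1 (vertical axis) and control KDM6A 1 (horizontal axis), coloured by whether an IgG interval overlaps the region. Points above the upper dotted line (45) were past 1.5-fold higher in MTX 1 and those below the lower one (59) past 1.5-fold lower; the single point at the top is Chuk and Cwf19l1.

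Genes of the pluripotency network, which hold stem cells in their state, were the group with the largest share of genes at these regions. Of 32 members, 7 (21.9%, exact 95% interval 9.28 to 40.0%) had one, where 3.07% of all 19056 genes did. They were Nr5a2, Klf5, Sox2, Tdgf1, Tbx3, Tfcp2l1 and Tet1, and at 6 of them IgG had an interval as well. Of all 480 regions, 25.6% had one, and the groups hold too few genes to read a difference from that share. Pluripotency genes were known to be among these intervals when the groups were chosen, so this is no independent observation. Regions of MTX 2 and control 2 held 1 of the 32. Only 118 of those lay at gene ends, against 480 here, so these counts are not directly comparable.

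Sox2 (chromosome 3, 34645801 to 34654200) had 109 reads over 115 background reads in MTX 1, 335 over 302 in IgG and 196 over 188 in control 1. Those are folds of 1.02, 1.15 and 1.38, but they come from different stretches: the interval of MTX 1 did not come within 1 kb of either end of Sox2, and that of control 1 covered the gene. Nr5a2, a nuclear receptor, had 1.18 in MTX 1, 1.79 in IgG and 1.89 in control 1 at its far end on chromosome 1 (136841001 to 136846600). Tbx3, a T-box factor, had 181 reads over 153 in MTX 1, 247 over 171 in IgG and 77 over 76 in control 1. Tfcp2l1, a factor of naive pluripotency, had folds of 0.92, 1.04 and 1.18.

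Klf5, a Krüppel-like factor on chromosome 14, had 2 regions, with folds of 2.06 in MTX 1 and 1.76 in control 1 (99313401 to 99319200) and of 1.17 and 1.25 (99306801 to 99312600). In the region with the higher folds the intervals of the libraries touched without overlap, and in neither region did both reach the same gene end. A single stretch of IgG, 534 reads over 441 with a fold of 1.26, overlapped both. Tet1, a DNA demethylation enzyme, lacked an IgG interval and had 1.11 in MTX 1 and 1.08 in control 1. MTX 1 and control 1 did not both reach the same gene end at Tet1, nor at Ddx50 and Gata2, so their folds rest in part on different stretches. Where more than 3 genes of a group are given values here or in the groups that follow, those beyond the 3 best-ranked were added after their values were seen.

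Splicing and RNA processing genes came next in share, with 12 of 104 (11.5%, 6.11 to 19.3%), 5 of them with IgG. Sf3b1, a core splicing factor on chromosome 1 (55023401 to 55031800), had 275 reads over 209 in MTX 1 and 166 over 155 in control 1 at its start, folds of 1.41 and 1.42. Ddx50, an RNA helicase, had 1.28 and 2.05, Srsf5, a splicing regulator whose region also reaches Slc10a1, 1.14 and 2.91 (IgG 1.03), and the region at Hnrnpll, which also holds a predicted gene, 1.34 and 1.55.

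Chromatin regulators had 4 of 35 (11.4%, 3.20 to 26.7%), none with IgG, beside 25.6% of all 480 regions. They were Ep300, an acetyltransferase, Kmt2c, a partner of KDM6A, Wdr5, a subunit of methyltransferase complexes, and Kdm5b, another demethylase. At Kmt2c (chromosome 5, 25272001 to 25278000), whose far end was reached by MTX 1 alone, MTX 1 had 131 reads over 85 and control 1 had 99 over 90, and the control 1 fold was 1.46. Wdr5 had 1.49 and 1.36 and Ep300 had 0.96 and 1.67, and there too control 1 did not come within 1 kb of the gene end. Kdm5b had 1.00 and 1.06.

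Cell cycle and replication genes had 4 of 46 (8.70%, 2.42 to 20.8%). Bub1 had 1.79 in MTX 1 and 1.55 in control 1, from 145 and 81 reads, and Rfc4 had 1.23 and 1.86. Prim1, a subunit of primase, had 0.80 and 1.48, and E2f1, a cell cycle factor whose region also reaches Necab3, 1.17 and 0.99. In both Prim1 and E2f1 the library with the lower value was under its background.

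Folate and one-carbon genes, the pathway that the samples' label folate deficiency refers to, had 4 of 38 (10.5%, 2.94 to 24.8%), none with IgG, beside 25.6% of all 480 regions. Folr2, a folate receptor, shares a region with Inppl1 and had 164 reads over 174 in MTX 1 and 111 over 98 in control 1. Cth, which makes cysteine, had folds of 1.70 and 1.28, Ahcyl2, an S-adenosylhomocysteine hydrolase-like protein, 1.52 and 1.09, and Ahcy, the hydrolase itself, 0.85 and 1.01. The exact 95% intervals of the libraries overlapped at Cth, Ahcyl2 and Folr2, and at Ahcyl2 they did not both reach the same gene end.

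The remaining groups are set beside the 3.07% of all 19056 genes. There were 2 of 36 p53 and DNA repair genes (5.56%), 4 of 73 cytosolic (5.48%) and 2 of 67 mitochondrial ribosomal proteins (2.99%). The respiratory chain had 4 of 82 genes (4.88%), the proteasome 1 of 39 (2.56%) and aminoacyl-tRNA synthetases 3 of 34 (8.82%). Core histone genes, whose copies can share reads, had 2 of 69 (2.90%). Hox genes had 2 of 29 (6.90%, Hoxd12 and Hoxd13, in 1 region) and patterning and lineage genes 1 of 35 (2.86%, Gata2). The Wnt pathway had 2 of 53 (3.77%, Fzd7 and Wls), neural tube closure 3 of 51 (5.88%, Enah, Arid1a and Ptch1) and the germline 2 of 20 (10.0%, Sycp1 and Msh4). The exact 95% intervals of all these shares included 3.07%. Hoxd12 and Hoxd13, body axis genes, had 1.40 in MTX 1 and 1.35 in control 1, and Gata2 had 1.36 and 1.28. Enah, Arid1a and Ptch1 had 0.96, 0.98 and 0.98 in MTX 1 and 1.04, 1.08 and 1.07 in control 1. Their exact intervals all included 1. IgG had an interval at Enah, with a fold of 0.94, and at both Wnt genes. Fzd7 had 1.40 in MTX 1, 1.34 in IgG and 1.42 in control 1, and Wls had 1.20, 1.89 and 1.21. At Wls, MTX 1 and control 1 did not both reach the same gene end. Fibroblast markers, which would mark feeder cells, had 0 of 19 (exact 95% interval 0 to 17.6%). Receptor families had the lowest shares beside it, with 18 of 1021 odorant (1.76%) and 5 of 352 pheromone receptor genes (1.42%). IgG had an interval at 9 of the odorant and 0 of the pheromone receptor genes, beside 25.6% of all 480 regions. Zfp zinc finger genes had 18 of 367 (4.90%), 4 of them with IgG.

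Just inside the limit of 1 kb, regions lay 987 bp from Zbtb25 and Smndc1 and 968 bp from Olfr128, with folds of 1.61, 1.16 and 1.30 in MTX 1 and 0.97, 1.59 and 1.71 in control 1, and all 3 had an IgG interval. Just outside, they lay 1010 bp from Zfp740, 1025 bp from Nup37 and 1062 bp from Plaa, and none had an IgG interval. Their folds were 1.53, 1.49 and 1.57 in MTX 1 and 1.09, 1.96 and 1.89 in control 1. Over all regions of MTX 1 and control 1 alone, the IgG share was 25.6% at gene ends and 24.0% away. No difference in IgG is read from the few regions at the limit.

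The nearest interval of MTX 2 or control 2 lay a median of 15201 bp away (quartiles 5401 and 36451 bp). It was within 1000 bp of 23 regions and within 5000 bp of 106. An unlisted site has no reads in the files used, and its level in libraries 2 is unknown.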

How the data were processed

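Interval lists of 4 KDM6A libraries and 1 IgG library were used. The submitters' processing notes name Bowtie2 and the mm10 build, without a version, and no source used here names the interval caller. Per the labels' protocols, 30 amplification cycles were used. The deposited lists hold, per interval on a 200 bp grid, whole read counts of the immunoprecipitation and of a background library, the deposited fold (their ratio, scaled by 1 constant per list), and a deposited p-value with its adjusted value. Intervals were called per library. Lists held 24177 (MTX 1), 28976 (MTX 2), 22843 (IgG), 44838 (control 1) and 21228 (control 2) intervals. Reads outside intervals, and so full depth, are unknown.

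Intervals were merged and matched to RefSeq genes (GRCm38.p6), with coordinates counted from 1, in Python 3.11.15 with pandas 2.3.3 and scipy 1.17.1, and the rule was tested on simulated lists. Members, 21 gene lists and comparisons were chosen with earlier results of these data known. Shares and read ratios have exact 95% intervals (Clopper-Pearson) that reflect counting error alone. No test was made, since 1 library stands for each condition. Gene list members were matched by current symbol. Named regions are the 12 without and 8 with an IgG interval that rank best (deposited p, then fold) in the library where they rank lower, up to 3 genes per list, and 3 regions on each side of the 1 kb limit, without predicted symbols. A few genes met by these rules are left out of the text. Any other gene was named after its values were seen.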

Additional observations from a re-analysis of the deposited data

How the results depend on the processing

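The number of regions, the share with IgG, the share at a gene start and the median log2 ratio of MTX 1 to control 1 were recomputed under other settings. Merging rules, windows of 0.5 or 2 kb, intervals of both libraries at the same gene end and chromosome 11 left all 4 within their counting intervals or within 1.5 times, and a pseudocount, the best interval only or a minimum of 100 reads did so for the log2 median. At a deposited adjusted p under 0.05 with a fold above 1, 259 regions remained, 20.5% with IgG and 61.6% at a start. In the better 50% of each list 81 were left, with 14.8%, 53.1% and a log2 median of -0.15. Lists of equal length gave 126 regions, 60.2% at a start and a log2 median of -0.38, with fewer intervals of control 1 by construction. In these 3 smaller sets the share at starts was lower than in all 480. On reads scaled to the total within intervals the log2 median was 0.78, but those totals are not depth. IgG was in 13.8% of regions when it had to cover 50% of them and in 16.7% when its own adjusted p had to be under 0.05. Leaving out 1 library loosens the rule. Regions then numbered 538 to 2810 (1638 without control 1, 2810 without MTX 1), the IgG share was 12.3 to 29.0%, the share at starts 62.2 to 66.4% and the log2 median -0.08 to -0.06. Without regions that have an IgG interval, 357 were left, 67.4% at a start. This setting and all settings of the share at starts were added after seeing the data. No paired analysis was possible because 1 library stands for each condition; in the 118 gene-end regions of MTX 2 and control 2, the log2 median of MTX 2 over control 2 was 0.06. Depth limits single regions: the exact interval of the fold included 1 in 237 of the 480 in MTX 1 and in 234 in control 1.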

Other observations

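Some regions held head-to-head gene pairs, with starts on opposite strands that lie within 1000 bp and point away from each other. Pairs named here were chosen after their values were seen. The region at Cbx5, a heterochromatin protein, and Hnrnpa1, an RNA-binding protein, on chromosome 15 (103237601 to 103241800) had folds of 0.91 in MTX 1, 1.04 in IgG and 1.16 in control 1. Cks1b, a cell cycle regulator, with Shc1, a signalling adaptor, had 0.98 in MTX 1 and 1.44 in control 1. At Sdha, a subunit of succinate dehydrogenase, 2 separate regions were listed on chromosome 13, 1 at each end of the gene. The one shared with the start of Ccdc127 had 1.43 in MTX 1, which came within 1 kb of neither start, 1.75 in IgG and 1.42 in control 1, and the one at the far end, shared with Pdcd6, had 1.32, 1.53 and 1.66.

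The regions were spread over all 18 chromosomes considered, from 8 on chromosome 19 to 50 on chromosome 2. Of the 480, 366 reached 1 gene, 108 reached 2 and 6 reached 3. Their median width was 5000 bp, the same as that of regions of these libraries away from gene ends, and the widest, at Nt5dc1 and Tspyl4, spanned 16400 bp.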
